A study of Mus musculus with 110 samples.

Results

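The enzymes described here make serine and pass its carbon to folate, and their RNA was followed in liver and 3 fat depots of mice that ate a methionine-restricted diet, were exposed to cold, or both. The members were chosen by name: Phgdh, Psat1 and Psph of serine synthesis, the cytosolic folate enzymes Shmt1 and Mthfd1, and the mitochondrial folate enzymes Shmt2, Mthfd2, Mthfd1l and Aldh1l2. They are 9 of the 56884 genes in the count tables, and all 9 had enough reads to be tested in every tissue. The mice were 28 adult male wild-type C57BL/6N animals, housed singly, 7 in each of 4 groups. They ate a control diet (Ctrl, 0.86% methionine) or a methionine-restricted diet (MetR, 0.12% methionine) and both diets lacked cysteine, controls included. After 7 days at 22 °C (room temperature, RT) the animals were killed or were first moved to 4 °C for 24 hours (cold exposure, CE). The cold groups were thus killed after 24 hours more of the experiment. Every comparison of a cold group with an RT group also holds this added time, which cannot be told apart from cold. The groups are named Ctrl_RT, MetR_RT, Ctrl_CE and MetR_CE.

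RNA came from whole liver, interscapular brown fat (iBAT), inguinal subcutaneous fat (iWAT) and epididymal visceral fat (eWAT), so fewer cells of a type and less RNA per cell cannot be told apart. The libraries held 6987895 to 33444374 counts in liver, 12672686 to 31232349 in iBAT, 16607493 to 33141066 in iWAT and 22625093 to 33372110 in eWAT. The tests used 105 of the 110 libraries, with 7 per group in liver, 6 or 7 in iBAT and iWAT, and 4 Ctrl_RT, 6 MetR_RT, 7 Ctrl_CE and 7 MetR_CE libraries in eWAT. The 5 others were left out to follow the study's own library set and return as an alternative. Levels are counts-per-million values (CPM) normalised within each tissue, and p-values come from edgeR's quasi-likelihood test with Benjamini-Hochberg adjustment over all genes tested in that tissue. A gene is called changed when its adjusted p is under 0.05 and its change is at least 1.5-fold. The share of all tested genes called in the same direction is given beside each count of members.

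Marker genes of each tissue were checked first. In liver the summed hepatocyte markers were at 50396 CPM or more in every library and the brown fat gene Ucp1 was listed at 0 counts. The 5 brown adipocyte markers, Ucp1 among them, still summed to 123 to 764 CPM in Ctrl_RT liver. Of the 5, 4 had a mean under 1 CPM over the liver libraries, so nearly all of this sum came from the remaining marker. Of the 2 tested in liver, 1 was called lower with restriction at RT and 1 with cold on the control diet. In iBAT the summed brown adipocyte markers were at 8379 CPM or more. Summed adipocyte markers were at 12938 CPM or more in iWAT and 15174 CPM or more in eWAT. Hepatocyte markers in Ctrl_RT summed to 720 to 2601 CPM in iWAT and 3359 to 6703 CPM in eWAT. Of these 6 markers, 4 had a mean under 1 CPM over the iWAT libraries and 0 over those of eWAT. Several libraries need a remark before the results. The treatment field and the title name different groups for 3 libraries of iBAT, which are replicate 1 in each group but Ctrl_RT. They were grouped by title, because the library name and the 3 other tissues of the same mouse carry the title's group. The iBAT library Ctrl_CE replicate 3 had 4.70 CPM of Mthfd2 and 3.38 CPM of Psat1, as in the warm controls, but its summed brown adipocyte markers, 16211 CPM, lay in the range of the cold groups, 15261 to 18910 CPM. In eWAT, Ctrl_RT replicate 2, which is among the libraries left out, held 8055 CPM of epididymal epithelium markers, with 123 CPM of Mthfd1l, 101 CPM of Mthfd2 and 148 CPM of Shmt2. The eWAT library MetR_RT replicate 2 was kept and held 1269 CPM of the same markers, while no other kept eWAT library passed 109 CPM.

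As background, serine is made from the glycolytic intermediate 3-phosphoglycerate in 3 steps: Phgdh oxidises it, Psat1 adds the amino group and Psph removes the phosphate. Serine hydroxymethyltransferase then moves a carbon from serine to tetrahydrofolate and leaves glycine, through Shmt1 in the cytosol and Shmt2 in mitochondria. In mitochondria Mthfd2 oxidises the folate-bound carbon, Mthfd1l releases it as formate and Aldh1l2 oxidises it to carbon dioxide with the gain of NADPH. In the cytosol Mthfd1 picks up formate and returns the carbon to folate for purines, thymidylate and the remethylation of homocysteine to methionine. Psat1, Phgdh, Mthfd2 and Aldh1l2 are textbook targets of the transcription factor ATF4, the effector of the integrated stress response, which amino acid shortage switches on. The question the comparisons address is how these genes responded to little dietary methionine, to cold and to their combination.

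The promoters of 4 members are shown because the members moved unequally: Phgdh, Psat1 and Mthfd2 are among the 4 with the largest changes, the other being Aldh1l2, and no change of Shmt2 was called in any tissue. Each sequence is the 250 bases before the annotated start in RefSeq (GRCm38.p6), read on the strand of the gene, and capitals mark the letters CCAAT or GGGCGG on either strand. Phgdh lies at chr3:98339970-98340219 on the minus strand, Psat1 at chr19:15925060-15925309 on the minus strand (the upstream of its annotated starts), Mthfd2 at chr6:83317605-83317854 on the minus strand and Shmt2 at chr10:127522445-127522694 on the minus strand. The last line is 30 bases of Asns, the asparagine synthetase gene, at chr6:7693214-7693243 on the minus strand, where the capitals mark a match to the ATF4 composite element TGATGNAA that begins 23 bases before the start.
Phgdh: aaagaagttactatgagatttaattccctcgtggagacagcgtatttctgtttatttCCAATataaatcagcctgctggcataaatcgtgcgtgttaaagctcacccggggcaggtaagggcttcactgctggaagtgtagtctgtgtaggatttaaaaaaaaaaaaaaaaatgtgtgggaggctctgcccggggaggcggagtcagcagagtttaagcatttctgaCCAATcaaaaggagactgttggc
Psat1: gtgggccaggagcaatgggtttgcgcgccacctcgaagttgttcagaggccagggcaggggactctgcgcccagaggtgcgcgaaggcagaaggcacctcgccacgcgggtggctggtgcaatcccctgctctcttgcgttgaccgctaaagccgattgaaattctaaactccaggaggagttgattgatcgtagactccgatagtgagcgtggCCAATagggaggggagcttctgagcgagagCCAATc
Mthfd2: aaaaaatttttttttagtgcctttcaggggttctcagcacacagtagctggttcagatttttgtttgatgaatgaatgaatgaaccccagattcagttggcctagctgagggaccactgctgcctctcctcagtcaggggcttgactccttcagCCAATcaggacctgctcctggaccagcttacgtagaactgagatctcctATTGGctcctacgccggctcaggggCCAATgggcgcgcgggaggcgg
Shmt2: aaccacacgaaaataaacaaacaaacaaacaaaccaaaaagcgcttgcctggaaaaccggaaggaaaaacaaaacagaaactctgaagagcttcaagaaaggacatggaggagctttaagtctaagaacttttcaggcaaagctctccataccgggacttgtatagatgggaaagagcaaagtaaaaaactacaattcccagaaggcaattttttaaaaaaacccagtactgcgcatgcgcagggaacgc
Asns: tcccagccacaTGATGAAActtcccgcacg

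RefSeq windows were matched for 8 of the 9 members, 9 windows in all since Psat1 has a pair of starts, and none was matched for Aldh1l2. The composite element TGATGNAA, searched on both strands, was found in 0 of the 9 member windows and in 3.452% of 32851 promoters of the same length. Of 14 integrated stress response genes with a window, 7 held it: Asns, Atf3, Chac1, Fgf21, Nupr1, Pck2 and Slc7a11. The letters CCAAT were present in 6 of the 9 member windows against 33.85% of all promoters, and GGGCGG in 5 of 9 against 32.74%. The E-box CACGTG was in 0 of 9 and in 6.021% of all. CCAAT was in windows of Phgdh, Psat1, Psph, Mthfd2, Shmt1 and Mthfd1, and GGGCGG in windows of Psat1, Psph, Mthfd1l, Shmt1 and Mthfd1. The Shmt2 window held neither. Shmt1 and Mthfd1, which like Shmt2 moved by less than 1.5-fold in liver on restriction, held both. A match describes letters in the window and no binding was measured.

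In untreated animals the RNA of these enzymes stood at different levels in the 4 tissues. Per kilobase of transcript, liver had the folate enzymes Shmt2, Shmt1 and Mthfd1 at the top. In Ctrl_RT liver their means were 144, 74.95 and 73.2 CPM per kb. The others had 5.11 (Psph), 4.49 (Mthfd2), 3.25 (Psat1), 0.209 (Mthfd1l), 0.179 (Phgdh) and 0.104 (Aldh1l2). White fat had Phgdh and Psat1 at the top. In Ctrl_RT eWAT Phgdh stood at 148 CPM per kb and Psat1 at 86.9, and in iWAT they stood at 46.3 and 37.5, while no folate enzyme passed 14.3 in either depot. In iBAT, Psph (18.1 CPM per kb), Mthfd1 (10.7), Shmt1 (9.37) and Shmt2 (8.47) were the most abundant members. Lengths are those of one annotated transcript per gene, so the order of members close in level is not settled by these values.

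With all tissues scaled together, Phgdh in Ctrl_RT animals had a mean of 0.422 ± 0.302 CPM in liver, 3.42 ± 0.739 CPM in iBAT, 76.4 ± 25.7 CPM in iWAT and 216 ± 68.1 CPM in eWAT (SD, n = 7, 6, 7 and 4). The ranges of the 4 tissues did not overlap, from 0.872 CPM at most in liver to 149 CPM at least in eWAT. Psat1 followed with 10.6 ± 6.15 CPM in liver, 3.95 ± 0.685 CPM in iBAT, 85.7 ± 11.6 CPM in iWAT and 174 ± 32.1 CPM in eWAT, where the ranges of liver and iBAT overlapped. Shmt2 ran the other way, with 413 ± 27.1 CPM in liver and 21.6 ± 1.72 CPM, 17.98 ± 1.66 CPM and 17.5 ± 1.57 CPM in iBAT, iWAT and eWAT, and the ranges of the 3 fat depots overlapped each other. Scaling across such different tissues rests on the assumption that most genes are alike, so these cross-tissue levels are descriptive. Liver, iBAT with iWAT, and eWAT were also submitted as separate sets of libraries, so a difference between sets cannot be told apart from tissue.

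In liver, methionine restriction raised all 3 serine synthesis enzymes and 3 of the 4 mitochondrial folate enzymes, and left the abundant Shmt1, Mthfd1 and Shmt2 within 1.5-fold of the controls. Of the 9 members, 6 were called higher in MetR_RT than in Ctrl_RT and none lower, where 2.88% of all genes tested were called higher. In the cold the same comparison of diets, MetR_CE against Ctrl_CE, called 6 members higher against 1.17% of all genes. The combination against untreated animals, MetR_CE against Ctrl_RT, called 5 higher against 6.25%. The last comparison shares its MetR_CE and Ctrl_RT animals with the other two, which have no animal in common.

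Phgdh, the entry enzyme of serine synthesis, was close to silent in control livers. It ranged from 0.0623 to 0.708 CPM (median 0.387, n = 7) in Ctrl_RT and from 0 to 0.474 CPM (median 0.279, n = 7) in Ctrl_CE, and from 4.66 to 20.2 CPM (median 12.3, n = 7) in MetR_RT and 1.64 to 6.01 CPM (median 2.71, n = 7) in MetR_CE. Every restricted liver was above every control liver at its own temperature. The change at RT was 36.2-fold (log2 fold change 5.18, SE 0.39, adjusted p = 5.66e-11) and in the cold 12.8-fold (log2 fold change 3.68, SE 0.42, adjusted p = 8.57e-07). Within restricted animals Phgdh was lower in the cold group (MetR_CE against MetR_RT, log2 fold change -1.93, SE 0.28, adjusted p = 1.42e-05). The control values rest on few reads, 7 in Ctrl_RT replicate 1 for example, so the fold is less certain than the difference in level.

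Psat1, the aminotransferase, rose from 2.07 to 16.04 CPM (median 8.91, n = 7) in Ctrl_RT to 49.8 to 97.4 CPM (median 88.7, n = 7) in MetR_RT. In the cold it stood at 7.79 to 16.3 CPM (median 13.3, n = 7) in Ctrl_CE and 50.7 to 78.6 CPM (median 62.3, n = 7) in MetR_CE. The diet groups did not overlap at either temperature, and the change was 9.39-fold at RT (log2 fold change 3.23, SE 0.26, adjusted p = 2.35e-10) and 4.87-fold in the cold (log2 fold change 2.28, SE 0.24, adjusted p = 3.32e-07). Psph, the phosphatase that ends the pathway, moved less, from 6.88 to 11.3 CPM (median 8.72, n = 7) in Ctrl_RT to 11.8 to 24.01 CPM (median 20.2, n = 7) in MetR_RT (log2 fold change 1.11, SE 0.13, adjusted p = 4.56e-07). In the cold Psph was at 5.71 to 11.1 CPM (median 7.90, n = 7) in Ctrl_CE and 10.3 to 13.6 CPM (median 12.2, n = 7) in MetR_CE, with overlapping ranges (log2 fold change 0.59, SE 0.14, adjusted p = 0.00357), a change that lies on the fold threshold and was below it, at 0.52 to 0.58, in 5 of the 7 alternative analyses. Psph too was lower in the cold group within restricted animals (log2 fold change -0.67, SE 0.13, adjusted p = 0.000363). The share of genes called lower there was 2.44%, and Phgdh and Psph were the 2 members among them. In the same comparison 3 of 4 endothelial, 2 of 5 macrophage and 1 of the 4 adipocyte markers tested rose. Of the hepatocyte markers 1 of 6 fell, as did 2 of 5 epithelial markers. Of 15 integrated stress response genes 3 fell and 0 rose. The part of these changes in the 2 members' calls was not tested. Psph overlaps Cct6a on the other strand, which had a mean of 145 CPM in liver against 12 for Psph, and the library kit named in the labels does not record strand.

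Among the mitochondrial enzymes, Mthfd2 had 5.97 to 16.6 CPM (median 9.51, n = 7) in Ctrl_RT and 24.1 to 53.2 CPM (median 47.96, n = 7) in MetR_RT, and the groups did not overlap (log2 fold change 2.13, SE 0.29, adjusted p = 2.78e-06). In the cold it had 4.55 to 15.7 CPM (median 8.64, n = 7) in Ctrl_CE and 10.7 to 49.5 CPM (median 31.1, n = 7) in MetR_CE, where the lowest restricted liver fell inside the control range (log2 fold change 1.76, SE 0.28, adjusted p = 9.47e-05). Aldh1l2, which burns the carbon to carbon dioxide, had 0.390 to 1.26 CPM (median 0.499, n = 7) in Ctrl_RT and 4.04 to 8.15 CPM (median 6.15, n = 7) in MetR_RT. It had 0.838 to 1.48 CPM (median 0.994, n = 7) in Ctrl_CE and 4.52 to 8.78 CPM (median 6.62, n = 7) in MetR_CE, with no overlap between diets at either temperature. Its change was 9.41-fold at RT (log2 fold change 3.23, SE 0.23, adjusted p = 1.86e-11) and 6.04-fold in the cold (log2 fold change 2.59, SE 0.21, adjusted p = 1.73e-09). Aldh1l2 overlaps D10Wsu102e on the other strand, at a mean of 20.2 CPM in liver. Mthfd1l, the formate-releasing enzyme, went from 0.258 to 1.18 CPM (median 0.749, n = 7) in Ctrl_RT to 0.962 to 3.96 CPM (median 3.04, n = 7) in MetR_RT with overlapping ranges (log2 fold change 1.83, SE 0.29, adjusted p = 3.20e-05). In the cold it went from 1.03 to 3.26 CPM (median 1.36, n = 7) in Ctrl_CE to 3.27 to 5.24 CPM (median 4.07, n = 7) in MetR_CE without overlap (log2 fold change 1.21, SE 0.25, adjusted p = 0.00144).

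The abundant folate enzymes moved little. Shmt2 averaged 330.3 ± 22.04 CPM (SD, n = 7) in Ctrl_RT and 389.6 ± 25.2 CPM (SD, n = 7) in MetR_RT (log2 fold change 0.24, SE 0.07, adjusted p = 0.0119). Mthfd1 averaged 237 ± 13.2 CPM (SD, n = 7) and 279.4 ± 9.06 CPM (SD, n = 7) in the same groups (log2 fold change 0.24, SE 0.06, adjusted p = 0.00302). Both passed the p-value and missed the fold threshold. Shmt1 averaged 214 ± 35.95 CPM (SD, n = 7) and 252.4 ± 35.3 CPM (SD, n = 7), a difference that did not pass (log2 fold change 0.24, SE 0.10, adjusted p = 0.0922). The cytosolic and mitochondrial copies of the same reaction, Shmt1 and Shmt2, thus both changed by less than 1.5-fold on restriction (95% intervals 0.05 to 0.43 and 0.11 to 0.37 on the log2 scale). After restriction Mthfd2 reached 19.6 CPM per kb and Aldh1l2 0.972, still below the 170.2 CPM per kb of Shmt2.

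Cold on the control diet called 2 members higher in liver, where 7.28% of all genes were called higher. Mthfd1l rose from 0.770 to 1.82 CPM (log2 fold change 1.23, SE 0.30, adjusted p = 0.00245), and Aldh1l2 from 0.624 to 1.08 CPM (log2 fold change 0.80, SE 0.26, adjusted p = 0.0218). All 4 endothelial markers and 4 of 5 macrophage markers rose in this comparison too, with summed ranges of 58.6 to 81.4 CPM against 105 to 189 CPM for endothelium and 124 to 173 CPM against 139 to 518 CPM for macrophages. Their part in the result was not tested. In the diet comparison at RT, 0 of 6 hepatocyte markers were called, 2 of 4 endothelial markers rose and 1 of 5 macrophage markers fell. In the diet comparison in the cold, 4 of 5 macrophage markers fell (139 to 518 CPM to 148 to 175 CPM), as did 4 of 5 proliferation markers (11.4 to 16.3 CPM to 7.96 to 13.1 CPM) and 2 of 5 fibroblast and stellate markers, and their part in the members' calls was not tested. No member passed edgeR's test of the diet by temperature interaction in liver, in which 1.06% of all genes were called in either direction. An unadjusted p under 0.05 was found for 4 members and 16.1% of all genes, and DESeq2 called 0. The largest interaction value was that of Phgdh (log2 fold change -1.5, SE 0.69, adjusted p = 0.279).

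**Figure D1:**
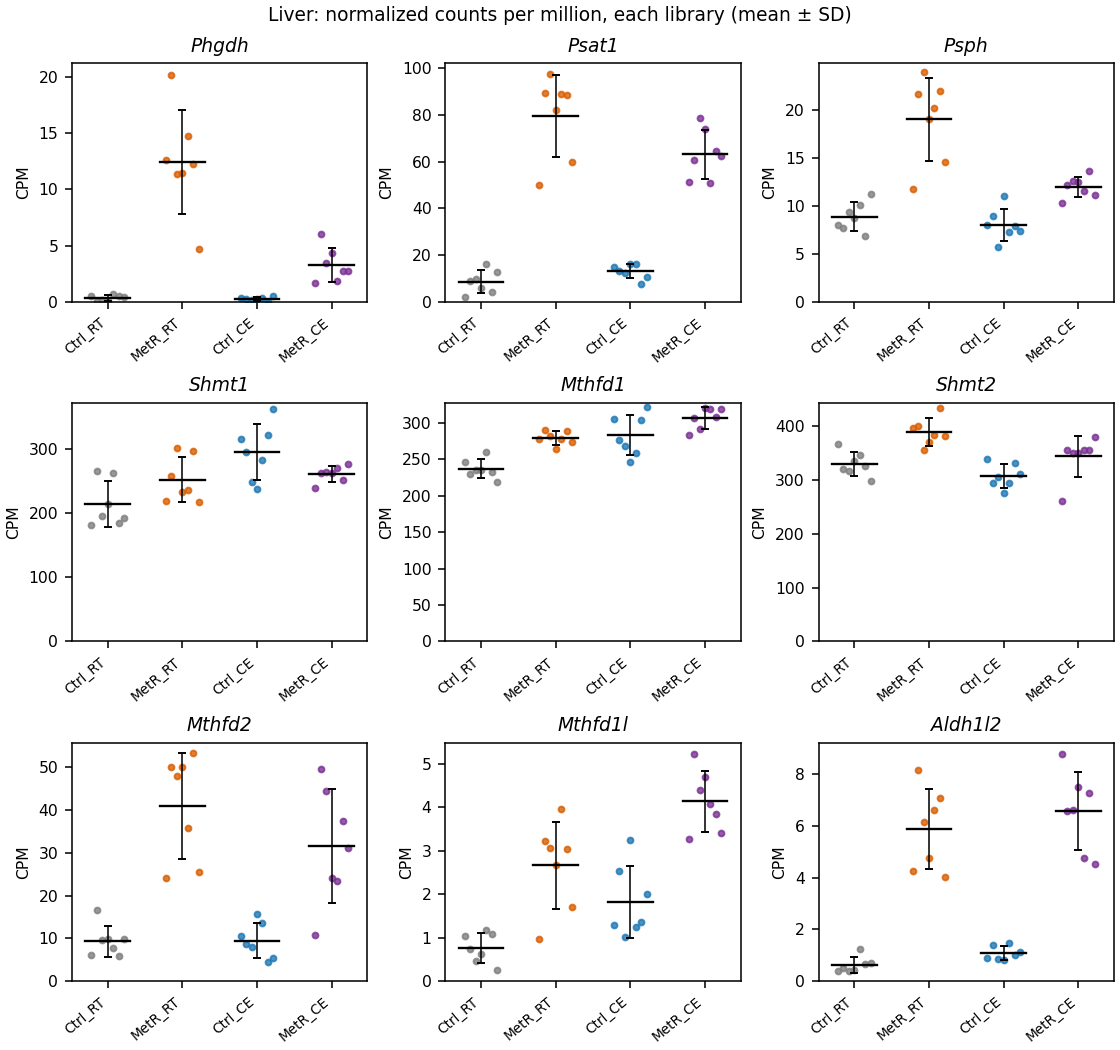
Normalised CPM (y axis) of the 9 enzymes in each liver library by group, with the mean and SD (n = 7 per group). Phgdh, Psat1, Mthfd2 and Aldh1l2 sit near the axis in both control groups and higher in both restricted groups, while Shmt1, Mthfd1 and Shmt2 stay between 181 and 435 CPM in every library.

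Other lists of the same pathway give the setting. Of 10 further mitochondrial one-carbon genes (the glycine cleavage system and others), 15 further cytosolic folate genes and 9 genes of serine use and transport, 0 were called in liver on restriction at RT (median log2 fold change of the mitochondrial list 0.10, of all genes 0.00). Of 15 integrated stress response genes 10 rose and 0 fell, with a median log2 fold change of 0.88. The 3 with the largest changes were Slc7a11, the cystine importer (0.0378 to 0.991 CPM, log2 fold change 4.35, adjusted p = 3.70e-05), Fgf21, a liver hormone of nutrient stress (5.31 to 42.8 CPM, log2 fold change 3.05, adjusted p = 0.00247), and Pck2, the mitochondrial phosphoenolpyruvate carboxykinase (4.27 to 28.5 CPM, log2 fold change 2.75, adjusted p = 3.15e-09). In the cold 6 of the 15 rose on restriction and 0 fell. Under cold on the control diet 0 of them rose and 1, Gdf15, fell (log2 fold change -1.18, adjusted p = 0.0147), and 1 serine-use gene fell, Agxt of glyoxylate detoxification (log2 fold change -0.77, adjusted p = 1.48e-05). The cytosolic folate list had 1 call there, Folr2, which rose (log2 fold change 0.80, adjusted p = 0.0324). In the combined group 7 stress response genes rose and 1 fell against Ctrl_RT, and of the folate lists Slc25a32 rose among the mitochondrial genes, while 2 of the 15 cytosolic genes, Mtr and Mtrr, rose and 1 fell. Slc25a32 is the mitochondrial folate carrier (log2 fold change 0.70, adjusted p = 1.00e-07).

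In iBAT more members were called with cold than with diet. Cold on the control diet called 4 of the 9 higher and none lower, against 4.97% of all genes called higher. Cold within restricted animals called 3 higher against 3.41%, and the combination against Ctrl_RT called 3 higher against 4.36% and 2 lower against 10.3%. Restriction at RT called 1 member higher against 0.535%, and restriction in the cold called none, in either direction, against 1.64%. In that last comparison edgeR gave 2 of the 9 an unadjusted p under 0.05, Shmt2 (log2 fold change -0.29, adjusted p = 0.15) and Mthfd1l (log2 fold change -0.59, adjusted p = 0.164), where 18.5% of all genes had one, and DESeq2 called 0 as well.

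Mthfd2 was the member that responded to both stimuli. Its values ran from 3.18 to 5.56 CPM (median 4.10, n = 6) in Ctrl_RT, 9.48 to 33.5 CPM (median 14.4, n = 7) in MetR_RT and 30.6 to 45.6 CPM (median 38.1, n = 7) in MetR_CE. In Ctrl_CE the 6 libraries had 63.8, 73.9, 4.70, 29.9, 61.1 and 72.3 CPM, 5 of them above every Ctrl_RT library and replicate 3 inside the Ctrl_RT range. Restriction at RT raised it 4.39-fold (log2 fold change 2.13, SE 0.39, adjusted p = 0.000786) and cold on the control diet 12.1-fold (log2 fold change 3.59, SE 0.40, adjusted p = 2.72e-08). Cold within restricted animals raised it 2.04-fold (log2 fold change 1.03, SE 0.33, adjusted p = 0.0199), and restriction within cold animals did not move it past the threshold (log2 fold change -0.43, SE 0.33, adjusted p = 0.538). The interaction was called (log2 fold change -2.56, SE 0.51, adjusted p = 0.0117), the single member among 0.125% of genes called lower, so cold and restriction together gave less than the sum of their log2 changes. The group means were 4.22, 18.6, 50.9 and 37.97 CPM in Ctrl_RT, MetR_RT, Ctrl_CE and MetR_CE. With the 3 libraries grouped by their treatment field instead, the interaction was -2.65 with adjusted p = 0.104, and the cold change on restriction was no longer called (0.56, adjusted p = 0.395). Without these 3 libraries that cold change was 0.95 with adjusted p = 0.0565.

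Psat1 rose in the cold. It ran from 2.38 to 4.00 CPM (median 3.74, n = 6) in Ctrl_RT, 2.01 to 8.12 CPM (median 4.48, n = 7) in MetR_RT and 8.71 to 14.8 CPM (median 12.5, n = 7) in MetR_CE, and the 6 Ctrl_CE libraries had 14.9, 23.9, 3.38, 7.69, 23.2 and 24.4 CPM. MetR_CE lay above both RT groups without overlap, and in Ctrl_CE replicate 3 was again the low library. The changes with cold were 4.61-fold on the control diet (log2 fold change 2.20, SE 0.33, adjusted p = 4.65e-06) and 2.84-fold on restriction (log2 fold change 1.5, SE 0.31, adjusted p = 0.00042). Phgdh rose from 3.06 to 6.14 CPM in the cold on the control diet (log2 fold change 1.01, SE 0.31, adjusted p = 0.0116), with a Ctrl_CE range of 1.53 to 12.8 CPM (median 5.92, n = 6) that spanned the control range. Mthfd1l, near the detection level, rose from 0.453 to 1.17 CPM on the control diet (log2 fold change 1.37, SE 0.26, adjusted p = 9.48e-05) and from 0.397 to 0.785 CPM on restriction (log2 fold change 0.98, SE 0.27, adjusted p = 0.00602). Grouped by the treatment field, the cold changes on restriction were not called for Psat1 (0.95, adjusted p = 0.0714) or Mthfd1l (0.63, adjusted p = 0.208).

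Psph ran against its partners of serine synthesis in iBAT. It stood at 26.3 to 35.8 CPM (median 32.2, n = 6) in Ctrl_RT and 28.2 to 35.8 CPM (median 31.1, n = 7) in MetR_RT, and at 19.3 to 25.5 CPM (median 23.1, n = 6) in Ctrl_CE and 20.9 to 25.5 CPM (median 22.6, n = 7) in MetR_CE. Each cold group lay wholly below the RT group of its diet, with a small and precise difference that missed the fold threshold (log2 fold change -0.46, SE 0.08, adjusted p = 4.41e-05 on the control diet and log2 fold change -0.46, SE 0.08, adjusted p = 2.94e-05 on restriction). Psph overlaps Cct6a on the other strand, which had a mean of 116 CPM in iBAT against 27 for Psph, and its part in this difference was not tested. Of the cytosolic enzymes, Shmt1 averaged 26.8, 21.7, 19.9 and 16.8 CPM in Ctrl_RT, MetR_RT, Ctrl_CE and MetR_CE, and was called lower in the combined group against Ctrl_RT (log2 fold change -0.67, SE 0.12, adjusted p = 8.04e-05). Shmt1 overlaps Smcr8 on the other strand, which had a mean of 52.6 CPM in iBAT. Mthfd1 stayed between 27.5 and 38.8 CPM in all libraries (cold on the control diet, log2 fold change -0.02, adjusted p = 0.841, 95% interval -0.14 to 0.10). Shmt2 rose within 1.5-fold in the cold on the control diet, from 19.4 to 26.1 CPM (log2 fold change 0.43, SE 0.12, adjusted p = 0.00511), and on restriction the means were 21.4 and 21.4 CPM (adjusted p = 0.983). Aldh1l2 was below 1.1 CPM in every library and was called lower in the combined group (log2 fold change -1.12, SE 0.42, adjusted p = 0.0385), a call lost under 4 alternatives: groups by treatment field (adjusted p = 0.138), without the 3 libraries (0.0844), the compared groups alone (0.0659) and a replicate block (0.0706).

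Of the brown adipocyte markers 3 of 5 rose with cold on either diet, with summed ranges of 8379 to 11134 CPM in Ctrl_RT and 15261 to 18116 CPM in Ctrl_CE, and 2 of 5 fibroblast markers fell on the control diet. Of 6 hepatocyte markers 5 fell with cold on the control diet and 4 with restriction at RT, from summed ranges of 46.1 to 134 CPM in Ctrl_RT to 3.01 to 47.9 CPM in Ctrl_CE and 4.43 to 16.6 CPM in MetR_RT. A mean under 1 CPM over the iBAT libraries was found for 4 of these 6. With restriction at RT, where Mthfd2 was called, 4 of 5 fibroblast and 2 of 5 macrophage markers fell too. Their part in the result was not tested. Without Ctrl_CE replicate 3, an alternative added after its values were seen, the 4 calls with cold on the control diet became 5, with Shmt1 added (log2 fold change -0.60, adjusted p = 3.59e-05). Phgdh then also passed within restriction (log2 fold change 0.71, adjusted p = 0.0301) and with both stimuli (log2 fold change 0.74, adjusted p = 0.023). Of the 15 integrated stress response genes 8 rose and 2 fell with cold on the control diet, led by Gdf15, a secreted stress signal (log2 fold change 3.55, adjusted p = 2.41e-09), Slc7a11 (log2 fold change 2.44, adjusted p = 0.00553) and Fgf21 (log2 fold change 2.26, adjusted p = 1.09e-09). On restriction at RT, 1 of the 15 rose, Atf5, a transcription factor of the same response (log2 fold change 0.73, adjusted p = 0.0103). The glycine cleavage gene Gcsh (log2 fold change -0.80, adjusted p = 1.42e-09) and Sardh, which frees a carbon from sarcosine (log2 fold change -0.92, adjusted p = 1.78e-09), fell with cold, the 2 calls among the 9 other mitochondrial one-carbon genes tested. Of the 15 other cytosolic folate genes 1 rose and 3 fell, led by Ftcd, Folr2 and Tyms, of which Tyms, thymidylate synthase, was the one that rose (log2 fold change 0.96, adjusted p = 1.33e-08), and of 8 serine-use genes tested 1 fell, Cbs of transsulfuration (log2 fold change -1.68, adjusted p = 0.00181).

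**Figure D2:**
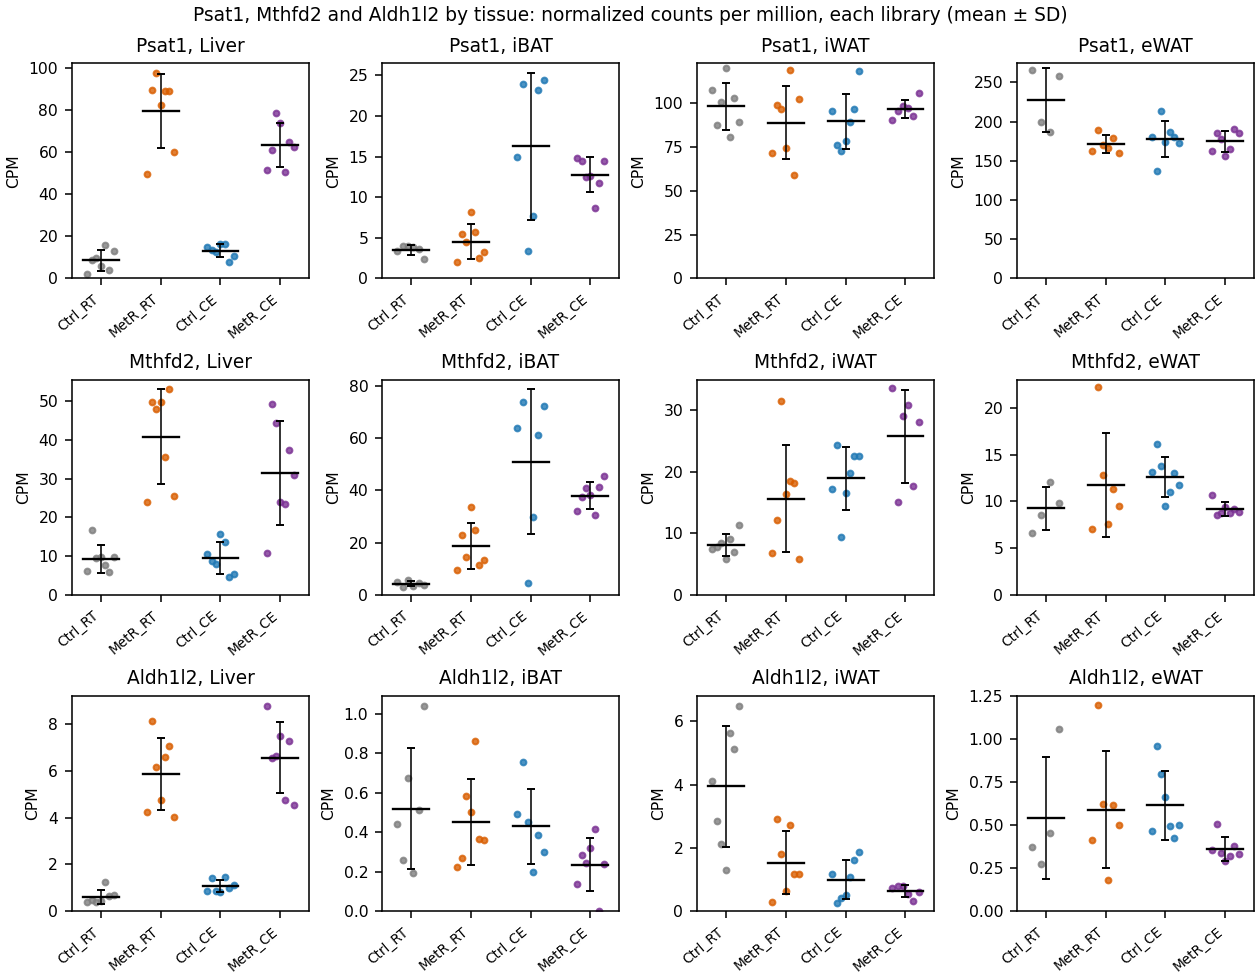
Normalised CPM (y axis) of Psat1, Mthfd2 and Aldh1l2 in each library by tissue and group, with the mean and SD. Mthfd2 was higher in the cold groups of iBAT apart from 1 Ctrl_CE library at 4.70 CPM, and Aldh1l2 was highest in the Ctrl_RT group of iWAT and in the restricted groups of liver.

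In iWAT Mthfd2 was called higher and Aldh1l2 lower under each stimulus, while the serine synthesis enzymes were not called. The restriction calls of Mthfd2 and Aldh1l2 were lost without the libraries over 1000 CPM of skeletal muscle markers, as given below. Restriction at RT called 1 member higher against 4.25% of all genes and 2 lower against 7.36%. Cold on the control diet called 2 higher against 5.99% and 1 lower against 9.94%, and the combination against Ctrl_RT called 2 higher against 8.05% and 1 lower against 14.4%. The single lower call with cold and that with both stimuli were near the share of all genes in their comparisons. No member was called for restriction within the cold, where 2.27% of genes were called in either direction, or for cold within restriction, where 1.88% were, or for the interaction, where 1.65% were. In these comparisons edgeR gave 3, 5 and 2 members an unadjusted p under 0.05, against 18.9%, 21.4% and 18.6% of all genes, and DESeq2 without shrinkage called 0, 2 and 1. The interaction of Psph came closest to a call (log2 fold change -0.88, SE 0.26, adjusted p = 0.0611).

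Mthfd2 ran from 5.88 to 11.4 CPM (median 7.82, n = 7) in Ctrl_RT to 5.88 to 31.4 CPM (median 16.3, n = 7) in MetR_RT, 9.33 to 24.4 CPM (median 19.8, n = 7) in Ctrl_CE and 15.02 to 33.5 CPM (median 28.5, n = 6) in MetR_CE. The MetR_CE libraries lay above all Ctrl_RT libraries, and the other groups overlapped with them. The changes against Ctrl_RT were 1.91-fold with restriction (log2 fold change 0.93, SE 0.28, adjusted p = 0.0147), 2.32-fold with cold (log2 fold change 1.22, SE 0.28, adjusted p = 0.00141) and 3.16-fold with both (log2 fold change 1.66, SE 0.29, adjusted p = 4.13e-05). Aldh1l2 ran the opposite way, from 1.29 to 6.49 CPM (median 4.10, n = 7) in Ctrl_RT to 0.308 to 2.92 CPM (median 1.19, n = 7) in MetR_RT, 0.257 to 1.87 CPM (median 1.08, n = 7) in Ctrl_CE and 0.313 to 0.799 CPM (median 0.669, n = 6) in MetR_CE. Again the MetR_CE group was the one without overlap. Its log2 fold changes were -1.36 with restriction (SE 0.42, adjusted p = 0.0182), -1.96 with cold (SE 0.43, adjusted p = 0.00102) and -2.66 with both (SE 0.47, adjusted p = 5.85e-05). Aldh1l2 overlaps D10Wsu102e on the other strand, at a mean of 20.7 CPM in iWAT.

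Mthfd1l fell with restriction at RT, from 1.86 to 4.97 CPM (median 2.71, n = 7) to 0.583 to 1.91 CPM (median 1.24, n = 7) (log2 fold change -1.21, SE 0.27, adjusted p = 0.00187), and the ranges overlapped at their edges. Cold did not move it past the test (log2 fold change -0.28, adjusted p = 0.462). Shmt1 rose with cold on the control diet, from 5.28 to 8.37 CPM (median 5.89, n = 7) to 5.82 to 21.4 CPM (median 9.58, n = 7) (log2 fold change 0.69, SE 0.25, adjusted p = 0.0382), and with both stimuli to 11.2 to 27.9 CPM (median 13.6, n = 6), above every Ctrl_RT library (log2 fold change 1.28, SE 0.26, adjusted p = 0.00027). Shmt1 overlaps Smcr8 on the other strand, which had a mean of 37.8 CPM in iWAT against 10.7 for Shmt1. Mthfd1 differed within 1.5-fold, at 31.1, 37.4, 43.9 and 46.5 CPM in Ctrl_RT, MetR_RT, Ctrl_CE and MetR_CE (log2 fold change 0.58, SE 0.07, adjusted p = 2.43e-07 for both stimuli). Shmt2 stayed between 16.6 and 24.1 CPM in all 27 libraries (both stimuli, log2 fold change 0.02, adjusted p = 0.869, 95% interval -0.15 to 0.19). Phgdh averaged 87.6 CPM in Ctrl_RT and 129 CPM in MetR_CE (log2 fold change 0.56, adjusted p = 0.0334), Psat1 98.3 and 96.7 CPM (log2 fold change -0.02, adjusted p = 0.92), and Psph 23.2 and 34.3 CPM in Ctrl_RT and Ctrl_CE (log2 fold change 0.56, adjusted p = 0.0189).

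Markers of several cell types moved with these values. All 5 brown adipocyte markers rose in each comparison with Ctrl_RT, with summed ranges of 47.2 to 762 CPM in Ctrl_RT, 378 to 4898 CPM in MetR_RT, 786 to 5788 CPM in Ctrl_CE and 3125 to 7536 CPM in MetR_CE. All 5 macrophage markers fell in each, from 1241 to 1971 CPM to 220.5 to 935 CPM, 262.9 to 1408 CPM and 169 to 423 CPM. Of the 5 fibroblast markers 3, 3 and 4 fell, from 6893 to 23178 CPM to 1948 to 6025 CPM, 1065 to 10214 CPM and 1112 to 1725 CPM. Of the 5 proliferation markers 0, 0 and 5 fell, with summed ranges of 13.8 to 65.97 CPM in Ctrl_RT and 3.83 to 11.1 CPM in MetR_CE. Their part in the results was not tested. Skeletal muscle markers summed to over 1000 CPM in 9 of the 27 libraries. Without these 9, an alternative added after the values were seen, the 3 calls for restriction at RT became 1, since Mthfd2 (log2 fold change 0.95, adjusted p = 0.089) and Aldh1l2 (log2 fold change -1.24, adjusted p = 0.147) no longer passed, and the cold call of Shmt1 was lost (0.68, adjusted p = 0.08).

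Of the 15 integrated stress response genes 3 rose and 3 fell with restriction at RT, 3 rose and 1 fell with cold, and 7 rose and 1 fell with both, in iWAT. Among the largest, Fgf21 rose with cold (log2 fold change 2.84, adjusted p = 4.24e-06) and both (log2 fold change 4.03, adjusted p = 4.99e-08), Atf5 rose with cold (log2 fold change 1.06, adjusted p = 0.000128), and Slc7a11 (log2 fold change -3.01, adjusted p = 0.0068) and Gdf15 (log2 fold change -2.20, adjusted p = 0.00851) fell with restriction. Among the restriction calls, 3 up and 3 down, Fgf21 was next in size after Slc7a11 and Gdf15. Dld, a dehydrogenase that the glycine cleavage system shares with other mitochondrial complexes, was the single call among the 9 other mitochondrial genes tested and rose in each comparison with Ctrl_RT (both stimuli, log2 fold change 1.31, adjusted p = 1.61e-06). Of the 9 serine-use genes 1 rose and 2 fell with restriction, where Sdsl, which deaminates serine, was the one that rose (log2 fold change 1.0, adjusted p = 1.65e-05) and Sfxn3, a mitochondrial serine carrier, fell (log2 fold change -0.74, adjusted p = 0.0015), with Agxt under 0.2 CPM. In the combined group Folr2, a folate receptor that is also a marker of tissue macrophages, fell the most of the cytosolic folate list, in which 3 of 15 fell and 0 rose (log2 fold change -2.54, adjusted p = 9.36e-05).

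In eWAT Psph was the single member called, and its log2 fold changes with cold had opposite signs on the 2 diets. No member was called for restriction at RT, where 0.115% of genes were called in either direction, for cold within restriction, where 0.112% were, or for both stimuli against Ctrl_RT, where 1.3% were. In these comparisons edgeR gave 3, 2 and 1 members an unadjusted p under 0.05, against 9.44%, 13% and 15.2% of all genes, and DESeq2 called 0 in each. Restriction within the cold called 1 member lower against 2.12% of genes, cold on the control diet called 1 higher against 0.979%, and the interaction called 1 lower against 1.2%.

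The 4 Ctrl_RT libraries had 14.04, 22.2, 13.3 and 16.1 CPM of Psph. The other groups ran from 12.5 to 37.9 CPM (median 25.7, n = 6) in MetR_RT, 18.7 to 47.7 CPM (median 30.5, n = 7) in Ctrl_CE and 12.4 to 18.3 CPM (median 15.7, n = 7) in MetR_CE. Ctrl_CE lay wholly above MetR_CE and overlapped Ctrl_RT in 1 library. Cold on the control diet raised Psph 2.01-fold (log2 fold change 1.01, SE 0.24, adjusted p = 0.0169), and restriction in the cold lowered it (log2 fold change -1.09, SE 0.20, adjusted p = 0.00117). Cold within restricted animals gave log2 fold change -0.65, adjusted p = 0.155. The difference between the responses passed the test of the interaction (log2 fold change -1.66, SE 0.32, adjusted p = 0.0087). The cold change was 0.92 to 1.19 with any 1 library left out, but the call was lost with 3 of the 4 controls left out in turn: without Ctrl_RT replicate 1 its adjusted p was 0.0775, without replicate 6 it was 0.0527, without replicate 7 it was 0.0556, and with all libraries the change was 0.56 with adjusted p = 0.195, where the added Ctrl_RT replicate 2, with 8055 CPM of epididymal markers, had 60.7 CPM of Psph. With all libraries the interaction was -1.08 with adjusted p = 0.29. In eWAT, Cct6a on the other strand of Psph had a mean of 154 CPM.

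Phgdh and Psat1, the most abundant members in eWAT, moved within 1.5-fold. Phgdh had 253.3, 271.1, 198 and 401 CPM in Ctrl_RT, 250.1 to 324 CPM (median 277.5, n = 6) in MetR_RT, 151 to 332 CPM (median 198, n = 7) in Ctrl_CE and 258.2 to 358 CPM (median 331, n = 7) in MetR_CE. Restriction within the cold brought it just under the fold threshold (log2 fold change 0.58, SE 0.15, adjusted p = 0.0114). Psat1 averaged 227 ± 40.5 CPM (SD, n = 4) in Ctrl_RT and 175 ± 13.5 CPM (SD, n = 7) in MetR_CE (log2 fold change -0.38, SE 0.10, adjusted p = 0.0402). Mthfd1 was lower in MetR_CE than in Ctrl_CE without overlap and within 1.5-fold (55.02 and 40.9 CPM, log2 fold change -0.43, SE 0.07, adjusted p = 0.000783). Shmt1 averaged 6.69 to 7.69 CPM, Shmt2 22.8 to 21.9, Mthfd2 9.27 to 9.17 and Aldh1l2 0.541 to 0.361 CPM between Ctrl_RT and MetR_CE, and no comparison of these passed.

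Mthfd1l in eWAT was highest in the library with the highest epididymal markers of those kept. Its 4 Ctrl_RT libraries had 1.28, 2.19, 4.25 and 1.27 CPM and MetR_RT ran from 1.32 to 20.6 CPM (median 2.44, n = 6), where the top value is the library with the raised epididymal markers. Without that library the log2 fold change on restriction at RT went from 1.22 (adjusted p = 0.519) to -0.03, and with all libraries, among them Ctrl_RT replicate 2 at 123 CPM, it was -1.93. Beside the Psph result, 4 of 5 brown adipocyte markers were lower in MetR_CE than in Ctrl_CE (summed ranges 4.38 to 14.2 CPM and 7.32 to 35.4 CPM), 4 of 5 proliferation markers were lower (4.56 to 7.81 CPM and 7.86 to 76.5 CPM), and 2 of 5 macrophage and 2 of 5 fibroblast markers were lower. With cold on the control diet, 2 of 5 brown adipocyte markers were higher. In that comparison 1 of 5 adipocyte, 1 of 6 hepatocyte and 1 of the 4 skeletal muscle markers tested were lower. Their part in the result was not tested. Of the 15 integrated stress response genes 0 changed with restriction at RT, 1 fell with cold on the control diet and 2 rose with both stimuli, Chac1 (log2 fold change 1.11, adjusted p = 0.0306) and Trib3 (log2 fold change 0.86, adjusted p = 0.0142). Of the serine-use list, the amino acid exchanger Slc1a4 rose (log2 fold change 0.71, adjusted p = 0.0036) with both stimuli.

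**Figure D3:**
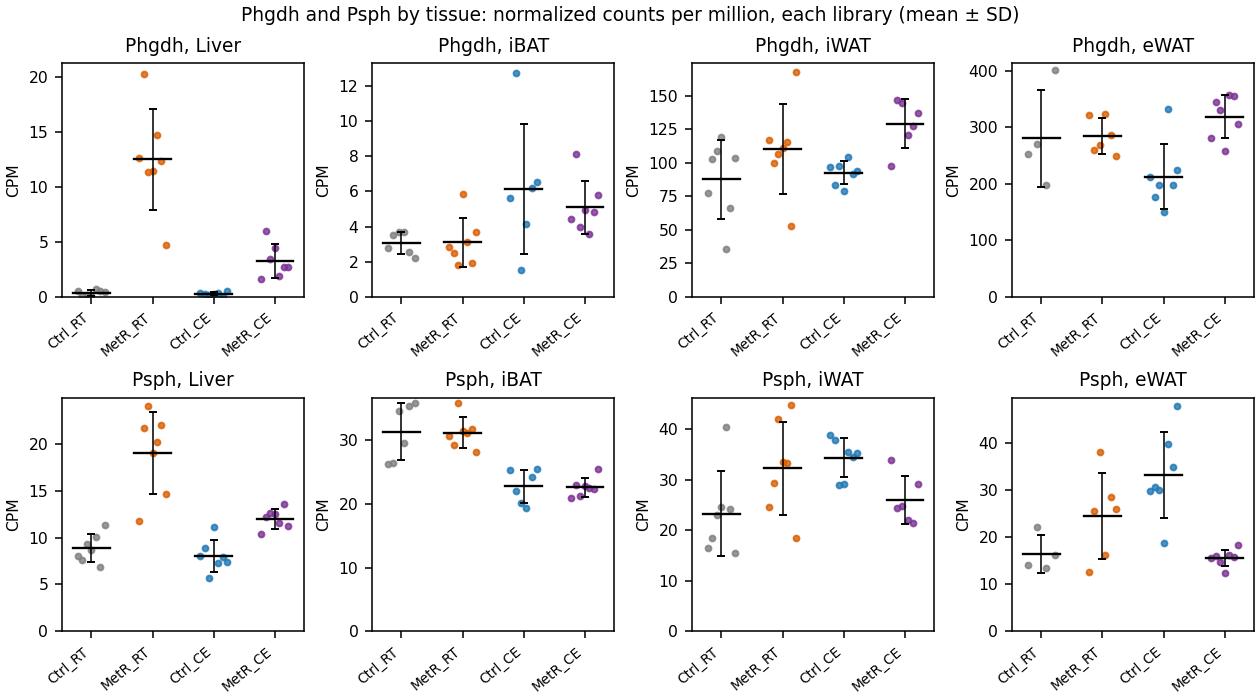
Normalised CPM (y axis) of Phgdh and Psph in each library by tissue and group, with the mean and SD. Phgdh was under 1 CPM in all control livers and between 151 and 401 CPM in eWAT, and Psph was lower in both cold groups of iBAT and higher in the Ctrl_CE group of eWAT.

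Whether a response differed between tissues was tested on the difference itself, in one edgeR fit over all tissues of the same mice with adjustment over 32143 genes. That fit does not use which tissues come from the same mouse, and limma voom with the mouse as a block was its alternative. The response to restriction at RT differed between liver and iBAT for 6 members against 4.46% of all genes, between liver and iWAT for 6 against 12.6%, between iBAT and iWAT for 2 against 6.09%, and between iWAT and eWAT for 1 against 5.27%. Phgdh responded more in liver than in iBAT (difference of log2 fold changes 5.18, SE 0.50, adjusted p = 9.95e-14) and than in iWAT (4.88, SE 0.46, adjusted p = 2.57e-14). Psat1 did as well, by 2.90, SE 0.35, adjusted p = 1.99e-09 against iBAT and by 3.40, SE 0.32, adjusted p = 1.81e-14 against iWAT. Aldh1l2, which rose in liver and fell in iWAT, differed by 4.62, SE 0.50, adjusted p = 9.79e-12, and Mthfd1l by 3.06, SE 0.49, adjusted p = 1.72e-06. Mthfd2 differed by 1.23, SE 0.42, adjusted p = 0.0408 between liver and iWAT, and with limma voom and the mouse as a block this difference was 1.47 with adjusted p = 0.0806. Between liver and iBAT its responses lay within the error of each other (0.02, SE 0.46, adjusted p = 1).

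The response to cold on the control diet differed between liver and iBAT for 5 members against 15.7% of all genes, between liver and iWAT for 4 against 19%, between iBAT and iWAT for 8 against 12.9%, and between iWAT and eWAT for 2 against 6.86%. Mthfd2 rose more in iBAT than in liver (liver minus iBAT -3.57, SE 0.46, adjusted p = 1.85e-09) and than in iWAT (iBAT minus iWAT 2.38, SE 0.45, adjusted p = 3.47e-05). Psat1 rose more in iBAT than in iWAT (2.34, SE 0.33, adjusted p = 7.83e-08), and Psph and Shmt1, lower in cold iBAT and higher in cold iWAT, differed by -1.02, SE 0.24, adjusted p = 0.000899 and -1.10, SE 0.24, adjusted p = 0.000445. Phgdh was the member whose cold responses in iBAT and iWAT were not told apart (0.94, SE 0.35, adjusted p = 0.0626). Aldh1l2 differed by -2.18, SE 0.55, adjusted p = 0.00692 between iWAT and eWAT. With limma voom and the mouse as a block, 8 of the 34 called differences were lost and 2 others passed. This alternative changed the test as well as adding the mouse, and its correlation within a mouse was 0.033. Which of these led to the losses was not tested. Those lost under restriction were liver minus iBAT for Mthfd1l and liver minus iWAT for Psph and Mthfd2. Those lost under cold were liver minus iBAT for Psat1, liver minus iWAT for Psph and Mthfd2, iBAT minus iWAT for Shmt2 and iWAT minus eWAT for Shmt1.

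**Figure D4:**
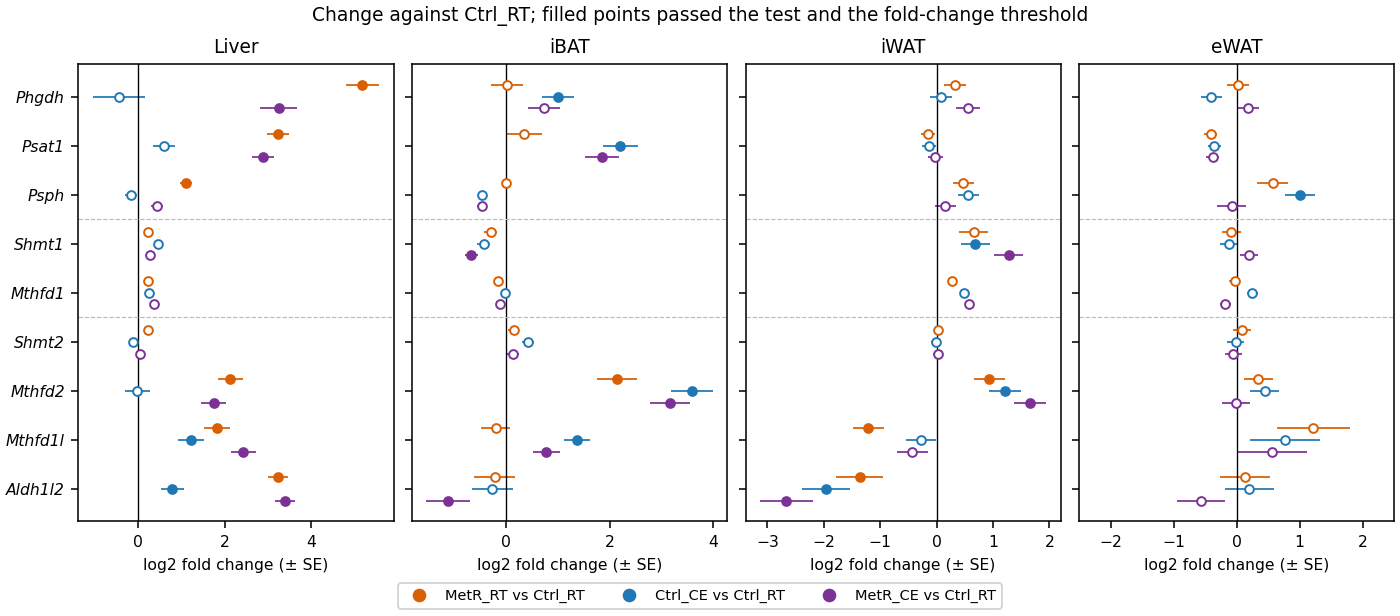
Log2 fold change against Ctrl_RT (x axis, bars are SE) of the 9 enzymes (rows) in 4 tissues, for restriction at RT, cold on the control diet and both; filled points passed the test and the fold threshold, and the x axes differ between tissues. Serine synthesis and mitochondrial enzymes moved right in liver with restriction, Psat1 and Mthfd2 moved right in iBAT with cold, and Aldh1l2 moved left in iWAT.

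Mitochondrial and cytosolic folate enzymes were set against each other within each library, as the mean log2 CPM of Shmt2, Mthfd2, Mthfd1l and Aldh1l2 minus that of Shmt1 and Mthfd1. In liver this difference was -5.12 ± 0.12 (SD, n = 7) in Ctrl_RT and -3.60 ± 0.28 in MetR_RT, and -5.04 ± 0.36 and -3.63 ± 0.24 in Ctrl_CE and MetR_CE. The restricted livers lay above the control livers at both temperatures, with the lowest restricted value at -4.08 and the highest control value at -4.47. In iBAT it was -3.79 ± 0.38, -3.09 ± 0.39, -2.40 ± 0.83 and -2.62 ± 0.27 in Ctrl_RT, MetR_RT, Ctrl_CE and MetR_CE, with a Ctrl_CE range that reached into that of Ctrl_RT. In iWAT it went down, from -1.17 ± 0.29 in Ctrl_RT to -2.04 ± 0.65, -1.99 ± 0.66 and -2.35 ± 0.23, and in eWAT the 4 means lay between -2.17 and -1.82. The measure weights low and high genes alike, and both sides moved in iWAT. With both stimuli the log2 fold changes averaged 0.93 over the 2 cytosolic and -0.35 over the 4 mitochondrial enzymes, with cold 0.59 and -0.26, and with restriction 0.46 and -0.40. The 4 mitochondrial enzymes of iWAT did not move together. With both stimuli Shmt2 was at 0.02, Mthfd2 at 1.66, Mthfd1l at -0.43 and Aldh1l2 at -2.66. The negative average thus leans on Aldh1l2, which had a mean of 3.94 CPM in Ctrl_RT, and the measure without Aldh1l2 was not computed. Leaving out Mthfd2 moved 8 of the 16 group means by more than their SD, and the iBAT means were then -4.11, -3.91, -3.38 and -3.73 in Ctrl_RT, MetR_RT, Ctrl_CE and MetR_CE. It is given as a description with no test.

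**Figure D5:**
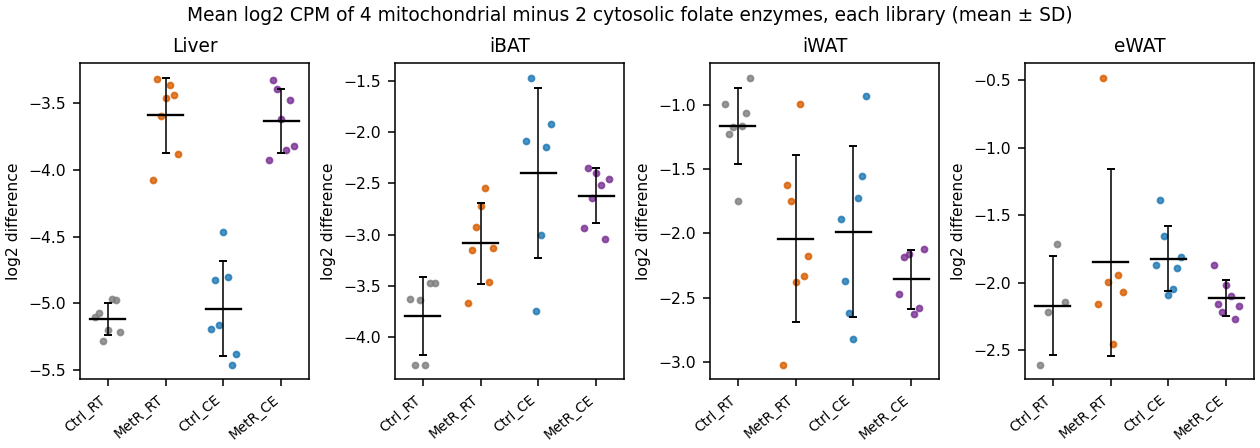
Mean log2 CPM of the 4 mitochondrial minus the 2 cytosolic folate enzymes (y axis, log2 units) in each library by tissue and group, with the mean and SD. The restricted livers lie above all control livers, and most treated iWAT libraries lie below the Ctrl_RT libraries of iWAT.

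The genes that varied most like Psat1 and Mthfd2 were sought among 8137 genes with at least 5 CPM in each tissue, by Pearson's r of log2 CPM over the libraries of a tissue, averaged over the 4 tissues. For Mthfd2 they were Eif3c (0.77), Srxn1 (0.77), Hspa9 (0.74), Gars (0.74) and Atf5 (0.73), where the median of all genes was 0.06. For Psat1 they were Aldh18a1 (0.61), Rhoa (0.57), St13 (0.56), Ndfip1 (0.52) and Slc29a1 (0.50), against a median of 0.04. Between Psat1 and Mthfd2 themselves r was 0.88 in liver and 0.88 in iBAT, and -0.01 in iWAT and -0.19 in eWAT. In the order liver, iBAT, iWAT, eWAT, Psph correlated with Psat1 at 0.81, -0.61, -0.29 and -0.13, and Shmt1 with Mthfd2 at 0.11, -0.87, 0.49 and -0.46. These values run over 24 to 28 libraries per tissue that fall into treatment groups, so they describe shared responses to the treatments as well as spread within groups, and no p is given.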

How the data were processed

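Per the labels, poly(A) RNA of each tissue was sequenced as paired 50-base reads with a NEBNext Ultra II RNA kit. The authors deposited 3 tables of raw counts per gene, one for liver, one for iBAT and iWAT and one for eWAT. The submitters' processing notes and the study's methods name STAR 2.7.9a with featureCounts 2.0.3 and Salmon 1.9.0 on mm10. The deposited counts carry Salmon in their names but are whole numbers, so which tool made them is not settled. Whether strand was used is not given in the sources used here. Counts that come from an estimate were taken as the whole numbers deposited. Of 56884 gene identifiers, 51948 matched a symbol without their version and 35 with it.

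Genes with at least 10 counts in total were tested per tissue in edgeR 4.0.16 (TMM normalisation, quasi-likelihood test, diet, temperature and their interaction over all 4 groups), with Benjamini-Hochberg adjustment. Each SE is the absolute log2 fold change over the root of its F statistic. Differences between tissues came from 1 joint fit without a mouse term. DESeq2 1.42.0 with apeglm 1.24.0, limma 3.58.1 (the joint fit with the mouse as a block), RLE normalisation, other filters, all libraries, groups by treatment field, a replicate block and left-out libraries were alternatives. Log2 CPM used a prior count of 2, and transcript lengths came from GENCODE mouse release 21. The scripts were tested on simulated data. The 28 mice are separate animals, and no 2 libraries of a group held identical counts (lowest chi-square per gene 5.43 over same-group pairs). P-values cover the spread between animals in this experiment.

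The 5 libraries left out, iBAT Ctrl_CE replicate 5 and eWAT Ctrl_RT replicates 2, 4 and 5 and MetR_RT replicate 7, were found by matching the mean counts of subsets to the study's source data, for the number per group its methods state. All 9 members are named with values. Of each other gene list, at most the 3 called genes with the largest change against Ctrl_RT per tissue were named, and genes beyond that rule were named after their values were seen. The 5 genes most like Psat1 and Mthfd2 were taken by mean correlation. The members, gene lists and tests were chosen with earlier results of these data known. Values of 1 gene of these lists are not reported here.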

Additional observations from a re-analysis of the deposited data

Results flagged for a closer look

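Of 144 groups of libraries examined, 14 held a library set well apart from the others of its group, where chance alone gives about 1 in 20 groups. In liver the highest Mthfd2 value of Ctrl_RT was replicate 2 with 16.6 CPM, the highest Aldh1l2 value of Ctrl_RT was replicate 5 with 1.26 CPM, and the lowest Shmt2 value of MetR_CE was replicate 1 with 262.01 CPM. In iWAT the highest values were those of Psph in Ctrl_RT replicate 5 with 40.4 CPM, of Mthfd1l in Ctrl_RT replicate 7 with 4.97 CPM, and of Shmt1 in Ctrl_CE replicate 4 with 21.4 CPM and MetR_CE replicate 4 with 27.9 CPM. In eWAT, MetR_RT replicate 2, which held raised epididymal markers, was highest for Shmt2 with 37.9 CPM and Mthfd1l with 20.6 CPM. Within Ctrl_CE of eWAT, Phgdh was highest in replicate 5 with 332 CPM, Mthfd1l was lowest in the same library with 2.48 CPM, and Shmt1 was highest in replicate 4 with 8.83 CPM. Within MetR_CE of eWAT, Mthfd2 was highest in replicate 1 with 10.7 CPM and Aldh1l2 in replicate 2 with 0.508 CPM.

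The response to cold differed between the diets for 2 members by the edgeR interaction test, Mthfd2 in iBAT (-2.56 on the log2 scale) and Psph in eWAT (-1.66).

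The responses of 2 tissues differed in 34 of 72 tests of the difference, 9 members for 2 stimuli and 4 pairs of tissues. Each value is a difference of log2 fold changes, the first tissue minus the second. For restriction at RT, liver minus iBAT was 5.18 for Phgdh, 2.90 for Psat1, 1.14 for Psph, 0.40 for Mthfd1, 2.04 for Mthfd1l and 3.48 for Aldh1l2. Liver minus iWAT was 4.88 for Phgdh, 3.40 for Psat1, 0.66 for Psph, 1.23 for Mthfd2, 3.06 for Mthfd1l and 4.62 for Aldh1l2. Between the fat depots, iBAT minus iWAT was -0.95 for Shmt1 and -0.41 for Mthfd1, and iWAT minus eWAT was -2.44 for Mthfd1l.

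For cold on the control diet, liver minus iBAT was -1.56 for Psat1, 0.93 for Shmt1, 0.31 for Mthfd1, -0.49 for Shmt2 and -3.57 for Mthfd2. Liver minus iWAT was -0.68 for Psph, -1.19 for Mthfd2, 1.55 for Mthfd1l and 2.80 for Aldh1l2. All members but Phgdh differed between the cold responses of iBAT and iWAT, with iBAT minus iWAT at 2.34 for Psat1, -1.02 for Psph, -1.10 for Shmt1, -0.50 for Mthfd1, 0.45 for Shmt2, 2.38 for Mthfd2, 1.65 for Mthfd1l and 1.69 for Aldh1l2. The iWAT minus eWAT values were 0.78 for Shmt1 and -2.18 for Aldh1l2.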

How the results depend on the processing

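With adjusted p alone and no fold threshold, the members called became 4 for cold on the control diet and 8 for both stimuli in liver, 7 and 5 for cold on the control and restricted diets in iBAT, 5, 1 and 5 for cold on each diet and both stimuli in iWAT, and 3, 2 and 1 for restriction in the cold, cold on the control diet and both stimuli in eWAT. The shares of all genes at that threshold were 28.8% and 30.3% in liver, 33.2% and 25.5% in iBAT, 30.8%, 5.41% and 37% in iWAT, and 11.5%, 5.27% and 2.7% in eWAT. With iBAT grouped by treatment field, cold within restriction and the interaction called 0, and Mthfd1l under restriction at RT turned to 0.29. In iWAT, DESeq2 without shrinkage called 2 for cold within restriction, and for the interaction DESeq2 with or without shrinkage and filterByExpr called 1. Without the muscle-rich iWAT libraries, an alternative chosen after seeing the data, restriction at RT called 1, Phgdh for cold within restriction turned to -0.065 and the Shmt1 interaction to 0.41. Replicate numbers did not pair the animals, since same-numbered libraries had a median correlation of 0.00, -0.01, 0.08 and 0.11 in liver, iBAT, iWAT and eWAT, with a lowest value of -0.60, and 2 of 28, 5 of 26, 4 of 27 and 7 of 24 libraries were closest to their own number. With the replicate block, 1 member was called for the iWAT interaction, 2 for restriction in the cold in eWAT and 1 for the cold difference of iWAT and eWAT, no other count moved by over 1.5 times, and Mthfd1l for cold within restriction in eWAT turned to 0.047.

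In eWAT, leaving out 1 library at a time gave 1 to 2 calls for restriction in the cold, 0 to 1 for cold on the control diet and 0 to 1 for cold within restriction, and the fit on the compared groups alone gave 2 for restriction in the cold. Without MetR_RT replicate 2, restriction at RT turned to -0.084 for Shmt2 and -0.028 for Mthfd1l, and cold within restriction to 0.032 and 0.59. Over all left-out libraries these values ranged from -0.084 to 0.147 for Shmt2 and -0.028 to 1.73 for Mthfd1l at RT, and from -0.194 to 0.032 and -0.865 to 0.591 within restriction. With all libraries, eWAT calls were 0 for cold on the control diet, 2 for both stimuli and 0 for the interaction. The log2 fold changes that turned were -0.74 for Shmt2, -0.97 for Mthfd2, -1.93 for Mthfd1l and -0.30 for Aldh1l2 with restriction at RT, -0.94 for Mthfd2, -2.38 for Mthfd1l and -0.27 for Aldh1l2 with cold, -0.014 for Shmt1 and -2.57 for Mthfd1l with both, and 0.71 for Shmt2, 0.52 for Mthfd2 and 1.73 for Mthfd1l in the interaction. The iWAT minus eWAT differences with all libraries turned to 0.46 for Psph, 0.77 for Shmt2 and 0.72 for Mthfd1l under restriction, and to 0.80 for Shmt2 and 2.08 for Mthfd1l under cold. The members whose responses differed then numbered 1 for liver against iWAT in the cold, 2 and 5 for iWAT against eWAT under restriction and cold, and with filterByExpr or limma (mouse as a block) 2 for iWAT against eWAT under restriction and with limma 1 under cold. The cause of these changes was not tested. Counting depth limits Phgdh, Mthfd1l and Aldh1l2 where they lie under 1 CPM, and in eWAT the 4 Ctrl_RT libraries limit every comparison with them.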
